A study of Mus musculus with 2 samples.

Results

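The Srd5a genes of the mouse adrenal gland were read as single long cDNA molecules in 2 libraries. The members are the 3 genes whose annotated name is Srd5a1, Srd5a2 or Srd5a3, of 16457 annotated genes with reads, and they were taken with every transcript model that carries one of these names, whether annotated or new. Replicate 2 held 64 such models of 85696 in all, and replicate 1 held 59 of 88716. The high level of Srd5a2 and the presence of a short intron in its 3′ UTR were known from these libraries when the genes were chosen, so the genes were in effect chosen by values of these libraries. The level of Srd5a2 and the share of the short intron are therefore given as descriptions, and tests are given only of differences between the libraries or between reads within a library.

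Both libraries came from the adrenal glands of male B6CASTF1/J mice, an F1 hybrid of the B6 and CAST strains, aged 2 months and supplied by The Jackson Laboratory. No treatment or second genotype was included, so the libraries form 1 group. The labels number them as biological replicates 2 and 1 but give both the same donor record, so whether each is a different animal is unclear. P-values between the libraries cover counting error only and hold for these samples alone. They do not measure a spread between animals, and a difference between the libraries may be technical. Replicate 2 held 656826 reads outside the spike-in controls and replicate 1 held 824225. Each read was taken to stand for 1 molecule, so levels in counts per 1000000 reads (CPM) carry no correction for length. Copies of a molecule and a bias by length within a library were not measured. Markers of the adrenal cortex, where steroids are made, summed to 60658 CPM in replicate 2 and 57388 CPM in replicate 1, and those of the medulla to 7854 and 7363 CPM. Fat-cell markers summed to 3917 CPM in replicate 2 and 7725 CPM in replicate 1, with all 4 of 4 read in both. Kidney markers had 6 reads in each library, all of Aqp2, liver markers had 2 reads in each, and the 4 markers of the male reproductive tract had none.

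Steroid 5α-reductases add hydrogen across the double bond of the first ring of 3-keto steroids, using NADPH. The enzyme encoded by Srd5a2 is best known for making dihydrotestosterone from testosterone in the prostate and the male genital tract, and that encoded by Srd5a1 for the same reaction in liver, skin and brain. The enzyme encoded by Srd5a3 is best known from the human gene for reducing polyprenol to dolichol, the lipid carrier of the sugars that are added to glycoproteins. The adrenal cortex makes progesterone and corticosterone, both of which are 3-keto steroids.

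Srd5a2 (ENSMUSG00000038541.8) lies on the minus strand at chr17:74016955-74047916 of mm10, and GENCODE M21 gives it a transcript of 5 exons and 1605 bases, Srd5a2-201. The start codon is in exon 1 (chr17:74047547-74047916, 370 bases). Exon 2 (164 bases), exon 3 (102 bases) and exon 4 (151 bases) follow, and the stop codon is near the start of exon 5 (chr17:74016955-74017772, 818 bases). The short intron lies wholly inside exon 5, at chr17:74017151-74017209. It is 59 bases long, begins 496 bases after the stop codon and leaves 196 bases of annotated 3′ UTR after it. It is in no annotated transcript of GENCODE M21. The sites below are those at which the Srd5a2 forms part, read 5′ to 3′ from the GENCODE M21 transcript sequence, which is that of the B6 reference. In the first 3, capitals mark the pair of intron bases next to the splice site. In the last pair, capitals mark the exon that follows exon 3.
donor of the short intron, chr17:74017200-74017219: tcatatgcagGTtctagatt
acceptor of the short intron, chr17:74017141-74017160: gtatgttgAGggtcatatag
inner donor in exon 1, chr17:74047781-74047800: gtgctggcagGTagcgccac
junction of exon 3 with exon 4: atcccacaagGTGGCTTGTT
junction of exon 3 with exon 5: atcccacaagGTTCTACCTC
As placed in the models, the short intron thus began with GT and ended with AG, the bases at the ends of nearly all spliced introns. The bases next to its ends match in part, so the gap could be shifted slightly without changing the read sequence. Its GC content was 27.1%, against 38.5% for the whole of exon 5.

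Srd5a2 carried nearly all of the family's reads. It had 3674 reads in replicate 2 and 3720 in replicate 1, or 5594 and 4513 CPM (5053 ± 764 CPM, mean ± SD, n = 2), and ranked 8 among all genes. Srd5a3 (ENSMUSG00000029233.15, chr5:76140271-76155479, plus strand) had 20 and 26 reads, or 30.4 and 31.5 CPM (31.0 ± 0.775 CPM, n = 2). Srd5a1 (ENSMUSG00000021594.11, chr13:69573449-69611442, minus strand) had 5 and 8 reads, or 7.61 and 9.71 CPM (8.66 ± 1.48 CPM, n = 2). The order Srd5a2, Srd5a3, Srd5a1 was the same in both libraries and the 3 ranges did not overlap. The exact 95% Poisson intervals, which cover counting error only, overlapped for no pair of genes in replicate 2 or in replicate 1. In bulk tissue, fewer cells of a type and less RNA per cell cannot be told apart.

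**Figure D1:**
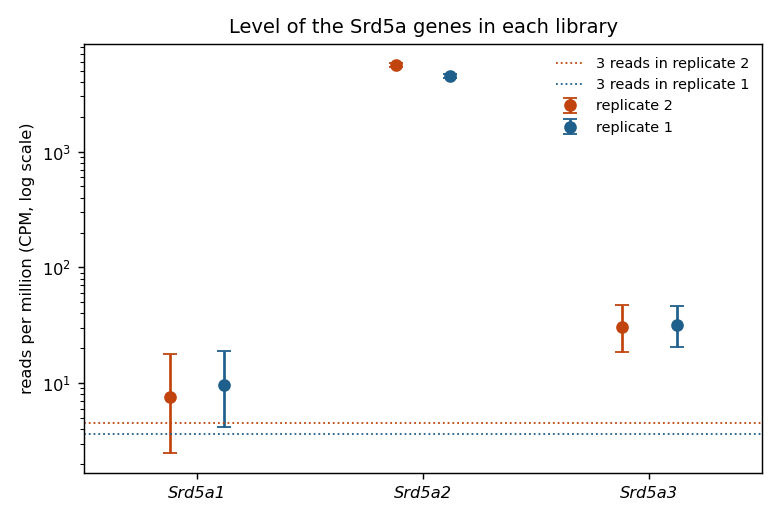
Level of each Srd5a gene in CPM, on a log axis, with 1 point per library and its exact 95% Poisson interval; dotted lines mark 3 reads in each library. Srd5a2 stands at 5594 and 4513 CPM, far above Srd5a3 and Srd5a1.

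Of the family's reads, 99.3% in replicate 2 and 99.1% in replicate 1 were of Srd5a2. Its reads outnumbered those of Srd5a3 184-fold in replicate 2 and 143-fold in replicate 1, and those of Srd5a1 735-fold and 465-fold. Its nearest neighbour in the order of all genes was the drug transporter gene Abcb1b, at 5683 CPM in replicate 2 and 4443 CPM in replicate 1. The levels of Abcb1b and Srd5a2 did not differ beyond their spread. Gsn, which encodes an actin-severing protein, followed at 3875 and 4968 CPM, and its range overlapped that of Srd5a2 too.

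Between the libraries, Srd5a2 was 0.21 higher in replicate 2 on the log2 scale after TMM scaling, which evens out differences in library composition. The adjusted p was 1.91e-08 (two-sided exact binomial test, Benjamini-Hochberg over all 8063 genes with at least 20 reads), and the difference was under the 2-fold minimum for a call. By this rule 275 genes were called, or 3.41%, and 11.1% of genes had an adjusted p under 0.05 whatever their fold. Srd5a3 differed by -0.15 (adjusted p = 0.946, same exact test), and Srd5a1 had too few reads to be tested. The sum of the fat-cell markers was lower in replicate 2 and that of the cortex markers slightly higher, as given above. The cortex markers did not all go the same way. Cyp11a1 was lower in replicate 2, by -0.51 on the log2 scale, whereas Star, Cyp11b1, Cyp21a1 and Nr5a1 were higher, by 0.19, 0.26, 0.42 and 0.54. The part of either marker set in the Srd5a2 difference was not tested.

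Genes listed for androgen and 5α-reduced steroid metabolism were mostly scarce. The cortex markers Cyp11a1, Cyp21a1, Star and Cyp11b1, which ranked 1 to 4 among all genes, are outside this list. Of 24 genes of androgen and 5α-reduced steroid metabolism, 14 had any read and 5 reached 20 reads in sum. The most abundant was Por, which passes electrons from NADPH to microsomal P450 enzymes, with 314 and 292 CPM (mean 303 CPM). Hsd17b4, a peroxisomal enzyme of fatty acid oxidation, had 180 and 260 CPM. Hsd17b10, a mitochondrial dehydrogenase, had 111 and 195 CPM, and Hsd17b12, which acts in fatty acid elongation, had 142 and 153 CPM. Hsd11b1, which regenerates active glucocorticoid from its 11-keto form, had 62.4 CPM in replicate 2 and 143 CPM in replicate 1. Of the 5, 3 had an adjusted p under 0.05, against 11.1% of all genes tested. Hsd11b1 was the 1 list member called between the libraries, lower in replicate 2 by -1.28 on the log2 scale (two-sided exact binomial test, adjusted p = 5.73e-06), against 3.41% of all genes called, and none was called higher. All 4 fat-cell markers were lower in replicate 2 as well, Ucp1, Fabp4, Adipoq and Cfd by -1.60, -1.56, -1.32 and -0.79 on the same scale, and their part in the Hsd11b1 difference was not tested. The median log2 ratio of the 5 tested genes was -0.63, against 0.01 for all genes tested.

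Cyp17a1, whose enzyme makes the precursors of androgens, had 3 reads in replicate 2 and none in replicate 1, and Hsd17b3, the testicular 17β-dehydrogenase, had 1 read in each. Akr1c14, which encodes the 3α-hydroxysteroid dehydrogenase that acts on 5α-reduced steroids, had none. Taken at 3 reads, a count of 0 allows a level of up to 4.57 CPM in replicate 2 and 3.64 CPM in replicate 1. The levels of Cyp17a1, Hsd17b3 and Akr1c14 were thus at or below what 3 reads mark in each library, whereas the level of Srd5a2 was far above it.

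For the pathway of Srd5a3, all 14 genes of dolichol synthesis and use had reads and 13 were tested. None was called by the exact binomial test, and none had an adjusted p under 0.05, with a median log2 ratio of -0.14. Alg2, a mannosyltransferase that extends the dolichol-linked sugar chain, led with 292 and 217 CPM (255 ± 53.1 CPM, n = 2), followed by Mpdu1, which is needed for use of dolichol-linked mannose, at 105 and 108 CPM. The kinase gene Dolk, which makes dolichol phosphate, had 82.2 and 109 CPM. The glucosyltransferase gene Alg5 had 89.8 and 88.6 CPM, and Alg1, which adds the first mannose, had 70.0 and 63.1 CPM. The mannose donor synthase genes Dpm1, Dpm3 and Dpm2 had 86.8, 51.8 and 47.2 CPM in replicate 2 and 67.9, 67.9 and 49.7 CPM in replicate 1. Srd5a3 lay below each of these 8 genes, the most abundant of the 14, in both libraries. It lay above Dhdds (10.7 and 18.2 CPM) and Alg13 (1.52 and 3.64 CPM), while Dolpp1 (42.6 and 27.9 CPM) stood above it in replicate 2 and below it in replicate 1. Alg14 had 22.8 CPM in replicate 2 and the same 26 reads as Srd5a3 in replicate 1. Tecr, which encodes a reductase of fatty acid elongation related to the 5α-reductases, had 477 and 524 CPM, and Tecrl had no read.

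Srd5a1 and Srd5a3 were read almost wholly as annotated. All 5 Srd5a1 reads of replicate 2 and 7 of 8 of replicate 1 were Srd5a1-202, a transcript of 5 exons and 2644 bases. The other read was of 1 exon. Srd5a3-201, of 6 exons and 1747 bases, took 18 of 20 reads in replicate 2 (90.0%, Wilson 95% interval 69.9 to 97.2%) and 23 of 26 in replicate 1 (88.5%, 71.0 to 96.0%). Each of the other 5 models of Srd5a3 had a single read. Its share did not differ between the libraries by the two-sided exact Fisher test (difference 1.54 percentage points, adjusted p = 1.0).

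Srd5a2, with many more reads, was read in many more forms, and the annotated form held the smaller part of its reads. Of its 60 models in replicate 2 and 53 in replicate 1, 33 and 29 had a single read. The number of forms cannot be compared between genes of such unlike depth. Its reads fell into 87 distinct structures, of which 26 were in both libraries, and the 23 structures with at least 5 reads in sum held 98.8% of its reads in replicate 2 and 99.1% in replicate 1. Models classed as new because of a new splice site held 49.4% of Srd5a2 reads in replicate 2 and 46.3% in replicate 1, against 4.04% and 3.49% over all annotated genes. This class does not hold every read with the short intron. The form with the short intron that skips exon 4, of 139 and 112 reads, was classed as a new combination of known sites. Annotated transcripts held 40.5% and 42.7% of Srd5a2 reads, against 79.0% and 79.4% over all annotated genes.

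The most read form joined all 4 annotated introns with the short intron. It had 1760 reads in replicate 2 (47.9%, Wilson 95% interval 46.3 to 49.5%) and 1661 in replicate 1 (44.7%, 43.1 to 46.3%). Srd5a2-201 had 1488 reads (40.5%, 38.9 to 42.1%) and 1589 reads (42.7%, 41.1 to 44.3%). The share of the most read form was 3.25 percentage points higher in replicate 2, which was not past the threshold (two-sided exact Fisher test, adjusted p = 0.285 over 5334 genes). Over those genes, 26 or 0.487% were called at 10 points or more, and 0.637% had an adjusted p under 0.05 at any difference.

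**Figure D2:**
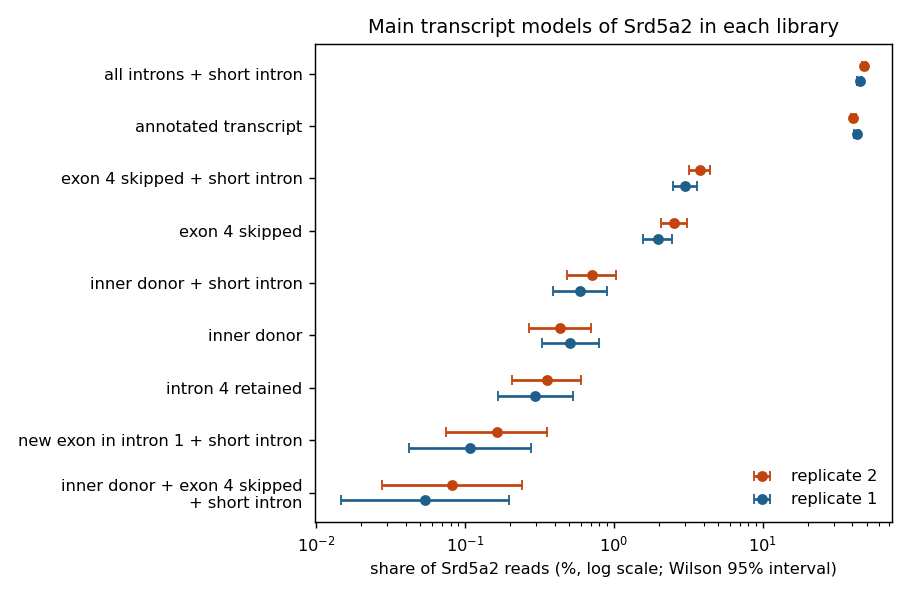
Share of Srd5a2 reads in its main multi-exon models, in percent on a log axis, with 1 point per library and its Wilson 95% interval. The form with all annotated introns plus the short intron leads at 47.9% and 44.7%, next to Srd5a2-201, and forms that skip exon 4 or use the inner donor stand well below both.

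Over all spliced reads whose model covers its position, the short intron was removed in 1994 of 3635 reads in replicate 2 (54.9%, Wilson 95% interval 53.2 to 56.5%) and in 1845 of 3569 in replicate 1 (51.7%, 50.1 to 53.3%). The mean was 53.3 ± 2.23% (SD, n = 2). It was kept in 1641 and 1724 reads. Of the reads in which it was removed, 88.3% in replicate 2 and 90.0% in replicate 1 had all 4 annotated introns removed as well. Other introns inside exon 5 were almost unseen, with 1 read of 187 bases and 1 read of 69 bases that shared the donor of the short intron.

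An intron here is a gap in a read's alignment to the B6 reference, and the tables do not give the parental allele of a read. A stretch that was spliced out and a stretch missing from the CAST allele cannot be told apart in them. A read counted as Srd5a2-201 takes that transcript's annotated ends, so that its own cover of the short intron is not recorded.

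The short intron left the coding sequence of 254 codons as annotated, since it lies after the stop codon. It placed an exon junction 496 bases after that stop, whereas in Srd5a2-201 the last junction precedes it. A junction far downstream of a stop codon is known as a feature that nonsense-mediated decay can recognise.

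The model with the short intron also reached farther in the 3′ direction than the annotation. It ended at chr17:74014890 in replicate 2 and chr17:74014889 in replicate 1, which is 2065 and 2066 bases past the GENCODE end and 1 and 2 bases past the end of the RefSeq gene (chr17:74014891, GRCm38.p6). Its length was 3611 and 3612 bases, against 1605 for Srd5a2-201. Of the reads in new models, 97.7% in replicate 2 and 98.1% in replicate 1 were in models with that same end. The shorter form that skips exon 4 without the short intron had the same far end, so the longer 3′ UTR was not limited to models with the short intron. Each model, new or annotated, has a single end for all its reads, and reads of Srd5a2-201 carry the annotated end whatever their own. The model that retained intron 4 ended at chr17:74016955 in replicate 2 and at chr17:74014889 in replicate 1. The share of molecules that reach the far end is therefore not recorded.

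**Figure D3:**
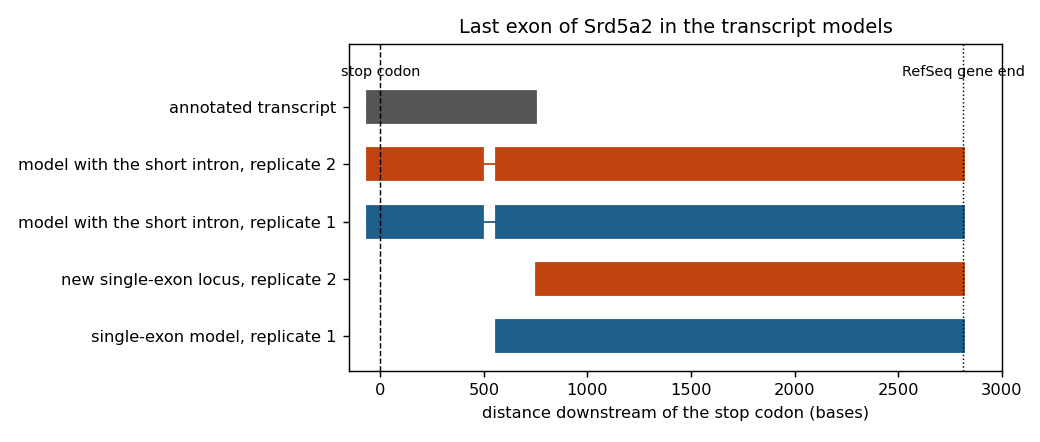
Last exon of Srd5a2 in the transcript models, drawn to scale in bases downstream of the stop codon, with exons as blocks and the short intron as a line. The annotated exon ends 2065 bases before the models of replicate 2, which end next to the RefSeq gene end.

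Skipping of exon 4 was the most frequent further choice. It joins exon 3 to exon 5, as in the junction sequences above, and was seen in 240 of 3596 reads in replicate 2 (6.67%, 5.90 to 7.54%) and 188 of 3541 in replicate 1 (5.31%, 4.62 to 6.10%) among reads informative for both choices. Exon 4 is 151 bases long, not a multiple of the codon length. In the reference sequence, its loss moves the reading frame to a stop in exon 5 after 207 codons, where the annotated form has 254.

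The inner donor of exon 1 was the next. It removes the last 244 bases of exon 1 and was used in 45 of 3579 reads in replicate 2 (1.26%) and 45 of 3521 in replicate 1 (1.28%). The frame then meets a stop in exon 2 after 28 codons. Rarer still were an exon of 126 bases in intron 1 (chr17:74038895-74039020), read in 7 and 6 molecules, and a form that used the same acceptor, ran on and ended inside intron 1, with 8 reads in replicate 2 and 12 in replicate 1. Intron 4 was retained in 15 and 13 reads. Donors 4 bases and 33 bases past the end of exon 2 were used in 6 and 4 reads of replicate 2 and in 3 and 4 of replicate 1.

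Other forms changed the 3′ part of the gene. An intron from the end of exon 4 to chr17:74016338, past the annotated end of the gene, left out all of exon 5 with the stop codon, in a form of 4 reads in replicate 2 and 3 in replicate 1. An acceptor inside intron 4, after which the rest of intron 4 was retained, was used together with introns 1 to 3 in 4 reads of replicate 2 and 6 of replicate 1. Spliced reads that began downstream of exon 1 with the annotated splicing of what was left made up further models. The largest of these started in exon 5 and had the short intron removed, with 22 reads in replicate 2 and 13 in replicate 1. Those that started in exon 4 had 7 and 9 reads with the short intron removed and 10 and 6 with it kept. Those that started in exon 3 had 6 and 3 reads with it removed and 5 and 6 with it kept, and those that started in exon 2 had 3 and 6 reads with it removed and 2 and 4 with it kept. Each of these spliced, truncated models held less than 1% of Srd5a2 reads in either library, and unspliced reads of the 3′ end are described separately.

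Each further choice was set against the short intron, read by read, in each library. Exon 4 was skipped in 146 of 1965 reads with the short intron (7.43%, 6.35 to 8.67%) and 94 of 1631 without it (5.76%, 4.73 to 7.00%) in replicate 2. In replicate 1 it was skipped in 115 of 1823 reads with it (6.31%, 5.28 to 7.52%) and 73 of 1718 without it (4.25%, 3.39 to 5.31%). The odds ratio was 1.31 (0.996 to 1.74, adjusted p = 0.0735) in replicate 2 and 1.52 (1.11 to 2.08, adjusted p = 0.0228) in replicate 1, by two-sided exact Fisher tests adjusted over 5 choices and both libraries. The share was higher with the short intron in both libraries, but the test passed the threshold in replicate 1 alone, so no difference is stated.

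Retention of intron 4 was the 1 choice past the threshold in both libraries with the same direction. It was seen in 2 of 1825 reads with the short intron (0.110%) and 13 of 1544 without it (0.842%) in replicate 2. It was seen in 1 of 1716 with it (0.0583%) and 12 of 1644 without it (0.730%) in replicate 1. The odds ratio was 0.129 (0.0141 to 0.572) in replicate 2 and 0.0793 (0.00185 to 0.537) in replicate 1, with an adjusted p of 0.00738 in each by the same exact test. Most of the reads that kept intron 4 belonged to a single model of 4 exons, which kept the short intron as well and had 13 reads in replicate 2 and 11 in replicate 1. Outside models classed as incomplete splice matches, 3 reads with intron 4 retained were left over both libraries, and the call was lost and the direction turned, at 0.0847 percentage points higher with the short intron (exact Fisher test, adjusted p = 1.0). These tests cover counting error within a library only, since reads of a library are not replicates.

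For the inner donor no difference passed the threshold. It was used in 29 of 1955 reads with the short intron (1.48%) and 16 of 1624 without it (0.985%) in replicate 2, and in 24 of 1813 (1.32%) and 21 of 1708 (1.23%) in replicate 1. The odds ratios were 1.51 (0.792 to 2.99, adjusted p = 0.253, exact Fisher test) and 1.08 (0.572 to 2.04, adjusted p = 0.881). The intron that leads from exon 1 to the exon inside intron 1 was in 6 of 1955 reads with the short intron and none of 1624 without it in replicate 2, and in 5 of 1813 and none of 1708 in replicate 1 (adjusted p = 0.0692 and 0.0786, exact Fisher test). A model that began downstream of exon 1 was found for 39 of 1994 reads with the short intron (1.96%) and 17 of 1641 without it (1.04%) in replicate 2, and for 32 of 1845 (1.73%) and 16 of 1724 (0.928%) in replicate 1. Its adjusted p was 0.0692 in each by the exact Fisher test, so that it too missed the threshold.

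All 3 choices met in a few molecules. The inner donor, the skip of exon 4 and the short intron were combined in 3 reads of replicate 2 and 2 reads of replicate 1. The inner donor and the skip of exon 4 were found together in no read that kept the short intron, of 1624 and 1708. Only 16 and 21 of those reads used the inner donor, too few for this absence to tell anything, and it was not tested.

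**Figure D4:**
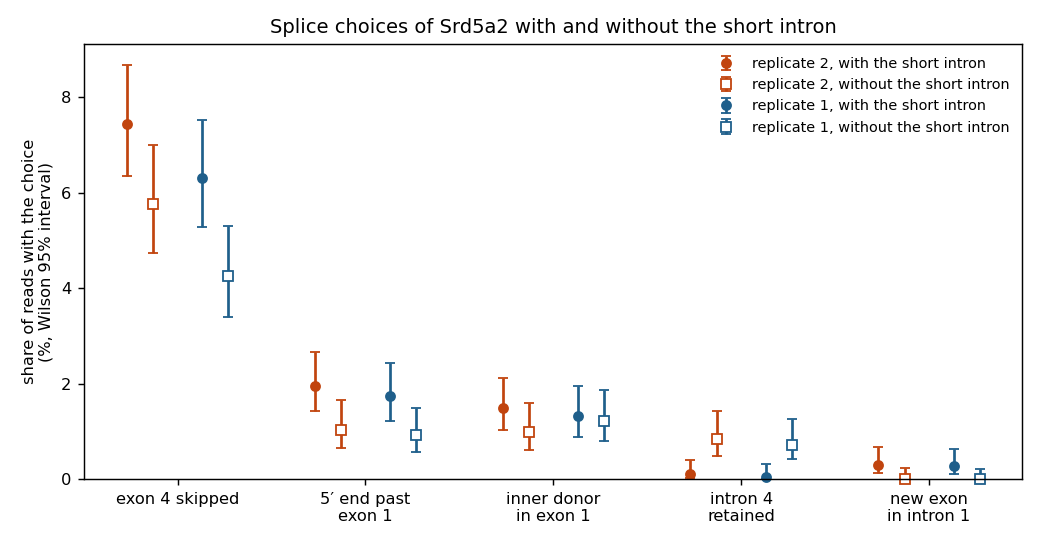
Share of Srd5a2 reads that show each further splice choice, in percent with Wilson 95% intervals, in each library. Filled circles are reads of models with the short intron and open squares those of models without it. Exon 4 skipping stands at 7.43% with and 5.76% without in replicate 2, and intron 4 retention is lower with the short intron in both libraries.

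A small set of molecules began upstream of exon 1. They numbered 13 of 3674 reads in replicate 2 (0.354%, 0.207 to 0.604%) and 11 of 3720 in replicate 1 (0.296%, 0.165 to 0.529%), each in a model of its own. In 10 and 9 of them the first exon lay upstream of all other exons read, the farthest starting 126026 bases before exon 1 in replicate 2 and 125956 in replicate 1. Exons of the upstream molecules lay at chr17:74105178-74105291 (10 and 9 reads), chr17:74080047-74080204 (7 and 6) and chr17:74073743-74073942 (9 and 7), and none was in every molecule. The last of these exons belongs to the noncoding RNA genes CT025731.1 and CT025731.4 of the same strand. Of these molecules, 8 in replicate 2 and 7 in replicate 1 ran on into exon 2 of Srd5a2, and 0 and 1 of those held exon 1, which carries the start codon. The 1 that did began 574 bases upstream of exon 1. The short intron was removed in 5 of them in replicate 2 and 3 in replicate 1, and kept in 2 and 3. The other 5 and 4 held no Srd5a2 exon, although the tables list them under this gene.

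Reads at the 3′ end in models without any intron were split differently by the authors' tables in each library. In replicate 1, 119 reads formed a single-exon model of Srd5a2 (chr17:74014889-74017150), which began at the base after the short intron. In replicate 2 no such model was listed, 9 reads were given to Srd5a2 as genomic, and 80 reads were given to a new locus at chr17:74014890-74016955. The 9 genomic reads were listed at a single base, chr17:74016955, so their own extent and splicing are not recorded. Taken as one set, they made up 2.37% of the Srd5a2 reads of replicate 2, with the new locus counted in, and 3.20% of those of replicate 1. With the new locus added, Srd5a2 stood at 5715 CPM in replicate 2, and it stayed at 4513 CPM in replicate 1.

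Introns inside an annotated last exon were set out for all genes, as background for Srd5a2. Among 5334 genes, each read at least 20 times per library, 75 (1.41%) had such an intron of at most 200 bases in at least 5 reads of each library. In 26 of these 75 genes such an intron lay in the 3′ UTR, as in Srd5a2. Srd5a2 ranked 1 by the number of reads, taken as the lower of the 2 libraries. Next came Oaz1, which encodes an inhibitor of polyamine synthesis, with 918 and 1314 reads, and the secretory granule gene Scg2 with 613 and 824. Mtch1, a mitochondrial membrane protein gene, had 441 and 518 reads, the phosphatase gene Pgp had 316 and 320, and the myosin light chain gene Myl6 had 284 and 508. These 5 introns were of 74 to 185 bases, all were annotated, and none lay in the 3′ UTR, whereas that of Srd5a2 was not annotated and lay in the 3′ UTR. By share of the gene's reads Srd5a2 did not lead. Its intron was in 51.9% of all its reads as the mean of both libraries. At that share or above, 46 genes, itself included, had an intron, whether or not in a 3′ UTR.

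Among the 97 introns of these 75 genes, 17 were not annotated, and 14 of those 17 lay in a 3′ UTR. Only 6 of the 97 were as short as that of Srd5a2 or shorter, all 6 not annotated and in 3′ UTRs, while the shortest of the 80 annotated ones had 71 bases. The other 5, named after their values were seen, were in Lrrc47 (46 bases, 48.3% of reads in replicate 2 and 49.3% in replicate 1), Pald1 (48 bases, 51.5% and 48.3%), Tbc1d2b (55 bases, 46.7% and 38.5%), Itpkb (45 bases, 8 of 23 reads and 12 of 24) and Mul1 (41 bases, 12.2% and 15.8%). Their reads numbered at most 42 in a library, so that their shares are less certain than that of Srd5a2. Of these 6 introns, 4 began with GT and ended with AG in the reference, among them that of Srd5a2, and 79 of the 80 annotated ones did. The GC content of the Srd5a2 intron, 27.1%, was below the median of 56.4% for the 6 and of 57.6% for the annotated introns. Over all 115264 annotated introns of transcripts read in these libraries, 4 were of 59 bases or fewer.

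**Figure D5:**
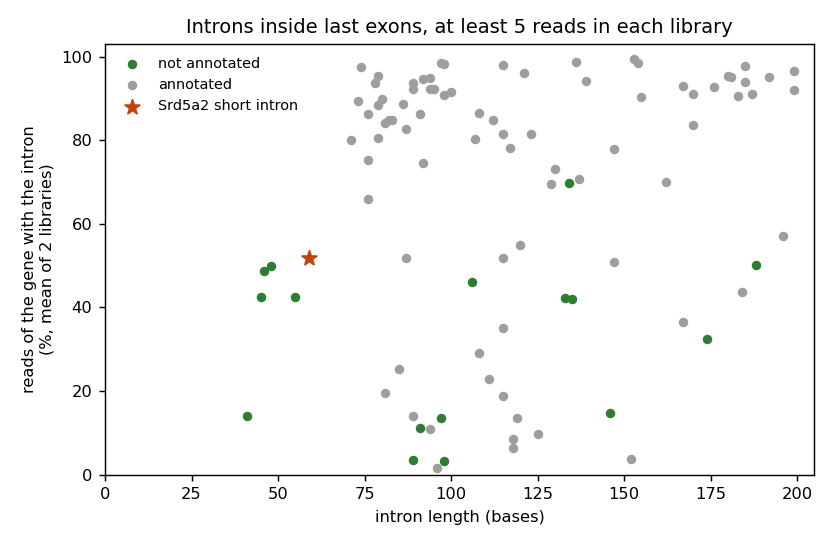
Introns that lie wholly inside an annotated last exon and had at least 5 reads in each library, by length in bases and by the mean share of the gene's reads, in percent. The Srd5a2 intron (star) stands at 59 bases and 51.9%, among the unannotated introns that are shorter than any of the annotated ones, whose shortest has 71 bases.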

How the data were processed

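Long cDNA reads of 2 libraries were aligned to mm10 and annotated against GENCODE M21 by the authors, per the file headers and deposited notes. The deposited count tables hold whole reads per transcript model, written by TALON per the deposited annotation; no aligner or tool version was found in the labels or headers. Each table is of 1 library. From these counts, reads were summed per gene without spike-ins, exons and introns were read from the matching annotation, and models were matched between libraries by intron chain. CPM used all reads outside spike-ins. The members, gene lists and tests were chosen with earlier results of these data known. With 1 group of 2 libraries, edgeR 4.0.16 gave TMM factors only, with no dispersion to estimate. A two-sided exact binomial test compared the libraries for each gene of at least 20 reads in sum, called at adjusted p under 0.05 and at least 2-fold, with a prior of 1 CPM in the log2 ratio; shares by exact Fisher tests. The gene test was tested on simulated data. Intervals are Wilson 95% intervals for shares, exact 95% Poisson intervals for levels and exact 95% intervals for odds ratios. All intervals and floors (3 reads) cover counting error only. Alternatives were DESeq2 1.42.0 size factors, library totals, no count filter, removal of genomic or incomplete reads, a length trend, other read minimums and each library alone. Named were the 3 genes, their models with at least 5 reads in sum, up to 8 list members with at least 20 reads, and the 5 genes with most reads of an intron inside the last exon. Calculations used Python 3.11.15 with scipy 1.17.1 and R 4.3.3. The values of 1 member of the androgen list are not reported here.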

Additional observations from a re-analysis of the deposited data

Results flagged for a closer look

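Signals of over 3 reads at the Srd5a2 locus were found in rows that the tables give to other loci. A new locus on the same strand past the annotated end, also counted with the 3′ end reads above, had 80 reads in replicate 2. A new locus on the opposite strand inside intron 1 had 6 reads in replicate 2, at chr17:74044131-74045662, and 8 reads in replicate 1, at chr17:74042943-74045662. Both ended at the same base, and each had a single exon. No control sample was included, so no level in controls can be set beside these counts.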

How the results depend on the processing

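Of 62 alternatives over 16 results, 53 were rated the same. For a test this meant the same direction and side of the threshold, and for a level or share a move under the SD between libraries. For a count it meant a change within a fixed fold limit. With 2 libraries, a level or share of 1 library alone always lies within that SD of the mean. Those alternatives could not have been rated otherwise, so they say nothing of robustness. Counting annotated transcripts alone moved the Srd5a2 level to 2097 CPM. Removing the trend on transcript length left 132 genes called between the libraries, in place of 275. The count of genes with an intron inside the last exon was 44 with at least 50 reads in each library and 177 with introns of any length, and Srd5a2 ranked 1 in both. Each library alone gave an Srd5a2 level of 4513 to 5594 CPM, a short intron share of 51.7 to 54.9%, and 1 to 2 choices linked to it; in replicate 1 alone, the second was the skip of exon 4. Without incomplete splice matches, 3 reads with intron 4 retained were left and the difference turned to 0.0847 percentage points, so that linkage rests on incomplete matches. The exon 4 skip then passed the threshold in both libraries, 4.69 percentage points higher on average with the short intron, because its form without the short intron is classed as incomplete in replicate 2 only and drops out there. A count of 5 to 8 reads limits what can be said of Srd5a1. No paired analysis was possible because the 2 libraries form a single group. An alternative chosen after seeing the data added the new locus past the annotated end and gave an Srd5a2 level of 5114 CPM.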
